A study of Mus musculus with 44 samples.

Results

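Oxidative phosphorylation was followed through mouse germ cell development by the genes for the subunits of the respiratory chain and ATP synthase and for the factors that assemble them. The genes were chosen by symbol in the annotation of the beadchip: symbols that start with Nduf, Sdha to Sdhd, Uqcr, Cox and a digit, or Atp5. This gave 98 genes on 123 probes. Probes were used if 2 or more arrays gave them a detection p below 0.01, and the brightest such probe stood for its gene. That left 92 genes on 110 probes, of 10935 genes measured in all, and 69 of the 92 were detected on every array.

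The 44 arrays fell into 23 groups. Primordial germ cells (PGC), the embryonic precursors of eggs and sperm, had been sorted from females at E12.5 to E18.5 and from males on the same 7 embryonic days. PGC at E11.5 have no stated sex. Cells labelled as male PGC came from testes at 8, 10, 12, 14, 16, 18 and 20 days after birth (P8 to P20), the days of the first wave of sperm formation. A male embryonic stem cell (ESC) line of strain OG2, homozygous for an Oct4-GFP reporter, was the outside comparison. Groups had 2 arrays, except P14 and ESC with 1. No strain is given for the PGC, and the labels do not say how many embryos or animals were pooled. The labels call the pairs biological, while the design text speaks of biological or technical duplicates, so the p-values below measure the spread between these arrays, which may be technical.

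Germ cell markers were present in the PGC windows: of Ddx4, Dazl, Dppa3, Mael and Tdrd1, 4 or 5 were detected in every window compared below, and 2 in ESC. On the E16.5 female arrays Dazl and Dppa3 were detected, but Ddx4, Mael and Tdrd1 were not. These arrays, with 24.9% to 25.8% of probes detected, enter the comparison with ESC. Embryonic arrays were dim, with an upper quartile intensity of 79.9 to 170.2, against 323.6 for ESC and 295.5 to 605.5 after birth. The E16.5 female and E11.5 pairs had the largest spread between replicates over all genes, 0.67 and 0.55 log2 units. Their group means are left out of the tests between sexes and days, so that the values of E16.5 given by day are descriptions. Both pairs still enter the estimate of the spread between replicates, which all tests share. These are sorted populations, in which fewer cells of a type and less RNA per cell cannot be told apart.

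Mitochondria make most of their ATP by passing electrons through complexes I to IV and using the proton gradient this builds to drive ATP synthase, complex V. Complex I takes electrons from NADH, complex II from succinate, complex III passes them to cytochrome c, and complex IV hands them to oxygen. Most subunits are encoded in the nucleus, a few on mitochondrial DNA, and dedicated factors insert metal centres and join the parts. Several subunits of complex IV come in paralogous forms, among them muscle forms (Cox6a2, Cox7a1, Cox8b) and testis forms (Cox6b2, Cox7b2, Cox8c). In the germ line, mature sperm use both glycolysis and respiration, and the oocyte passes its mitochondria to the embryo.

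By complex, 33 of 34 annotated genes of complex I were kept, 3 of 3 of complex II, 6 of 8 of complex III, 18 of 19 of complex IV (Ndufa4 counted here), 15 of 16 of complex V and 17 of 18 assembly factors and related genes. Ndufs1, Uqcrfs1, Uqcrq, Cox8b, Cox16 and Atp5k were on the array but not detected on enough arrays. Sdha carried no probe under this name. Ndufs5-ps is listed by RefSeq as a transcribed pseudogene, and its probe may read the parent gene. Subunit genes have processed pseudogene copies, and cross-hybridization of the probes was not tested. Levels are log2 intensities after background correction and quantile normalization, and differences are taken between arrays within each probe. Levels of different probes are not read as amounts of RNA. Median levels of sets of genes below describe how bright their probes were, and in summed marker intensities the brightest probes weigh most.

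Promoters of 6 genes are shown as examples with and without the motifs searched, chosen after the values were seen. Atp5pb, Ndufc1, Atp5h and Uqcr11 were higher in females in both later windows below, and Cox7a1 and Cox6b2 are isoforms with courses of their own. Each window runs from 250 bases before the RefSeq start of the gene to 50 after it (RefSeq, GRCm38.p6), read 5′ to 3′ on the gene's strand. Capitals mark a YY1 motif in Atp5pb and Ndufc1, an NRF1 and an ETS motif in Atp5h, and an ETS motif in Uqcr11. Cox7a1 and Cox6b2 hold none of the motifs searched, nor do the windows of Ndufa1 and Ndufv2, which are not shown.
Atp5pb (chr3:105959214-105959513, minus strand): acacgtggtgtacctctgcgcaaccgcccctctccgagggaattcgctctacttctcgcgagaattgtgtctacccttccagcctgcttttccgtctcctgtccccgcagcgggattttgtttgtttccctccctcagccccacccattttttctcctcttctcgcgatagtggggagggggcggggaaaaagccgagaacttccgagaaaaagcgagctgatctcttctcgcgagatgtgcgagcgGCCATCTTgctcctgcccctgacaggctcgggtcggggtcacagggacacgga
Ndufc1 (chr3:51408906-51409205, minus strand): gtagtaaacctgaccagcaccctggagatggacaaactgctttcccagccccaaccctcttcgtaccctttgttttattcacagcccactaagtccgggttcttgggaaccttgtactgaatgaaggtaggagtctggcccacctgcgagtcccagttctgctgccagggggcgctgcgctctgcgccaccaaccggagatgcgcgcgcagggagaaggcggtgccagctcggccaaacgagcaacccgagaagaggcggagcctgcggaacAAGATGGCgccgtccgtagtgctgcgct
Atp5h (chr11:115419870-115420169, minus strand): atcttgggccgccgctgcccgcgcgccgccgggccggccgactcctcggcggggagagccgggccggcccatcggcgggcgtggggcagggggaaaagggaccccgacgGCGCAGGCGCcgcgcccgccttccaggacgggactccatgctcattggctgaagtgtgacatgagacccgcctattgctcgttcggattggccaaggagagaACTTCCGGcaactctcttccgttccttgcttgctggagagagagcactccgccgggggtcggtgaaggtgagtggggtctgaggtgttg
Uqcr11 (chr10:80406772-80407071, minus strand): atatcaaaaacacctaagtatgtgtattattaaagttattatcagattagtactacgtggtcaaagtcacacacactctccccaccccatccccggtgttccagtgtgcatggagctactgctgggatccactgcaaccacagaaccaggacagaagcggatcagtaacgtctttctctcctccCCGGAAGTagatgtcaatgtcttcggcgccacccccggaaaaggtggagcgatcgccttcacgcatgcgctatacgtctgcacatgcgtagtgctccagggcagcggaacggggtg
Cox7a1 (chr7:30183921-30184220, plus strand): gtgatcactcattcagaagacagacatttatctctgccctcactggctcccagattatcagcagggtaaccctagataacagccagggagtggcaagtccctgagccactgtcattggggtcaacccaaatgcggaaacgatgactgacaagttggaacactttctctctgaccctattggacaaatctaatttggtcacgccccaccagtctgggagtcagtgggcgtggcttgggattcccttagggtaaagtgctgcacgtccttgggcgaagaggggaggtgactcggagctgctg
Cox6b2 (chr7:4753045-4753344, minus strand): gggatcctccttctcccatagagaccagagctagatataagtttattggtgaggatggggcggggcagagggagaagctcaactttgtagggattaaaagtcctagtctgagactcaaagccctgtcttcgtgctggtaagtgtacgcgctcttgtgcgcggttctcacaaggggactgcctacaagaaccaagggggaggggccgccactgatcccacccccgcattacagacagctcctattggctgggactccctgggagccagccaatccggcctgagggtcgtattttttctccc

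NRF1, the ETS factor GABPA and YY1 are known activators of nuclear genes for respiration, and CREB acts through the CRE motif. Both strands of the windows of 77 kept genes with a window were searched for NRF1 (GCGCA, then any base, then GCGC), ETS (CCGGAAGT), YY1 (AAGATGGC) and CRE (TGACGTCA). The NRF1 letters stood in 17 windows (22.1%), against 5.19% of the windows of 27025 genes, and the YY1 letters in 12 (15.6%), against 3.19%. The ETS letters stood in 8 (10.4%), against 4.31%, and the CRE letters in 2 (2.6%), against 2.03%. The 27025 genes were not limited to those measured here, and the base composition of the windows was not matched. A match describes the letters, not binding.

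The 92 genes stood close together in both sexes at first and then parted. Taking each gene's deviation from its own mean over 44 arrays, the median over the 92 genes was 0.13 in females and 0.16 in males at E12.5. At E15.5 it was 0.26 in females and −0.63 in males, and at E18.5 it was 0.26 in females and −0.46 in males. Females stayed between 0.13 and 0.40 on all 7 days, whereas the male median was below 0 from E14.5 on. The median over all genes tested stayed between −0.16 and 0 in every group. The E14.5 male arrays straddled the change, at 0.07 and −0.41. After birth the male medians lay between −0.14 and 0.16.

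**Figure D1:**
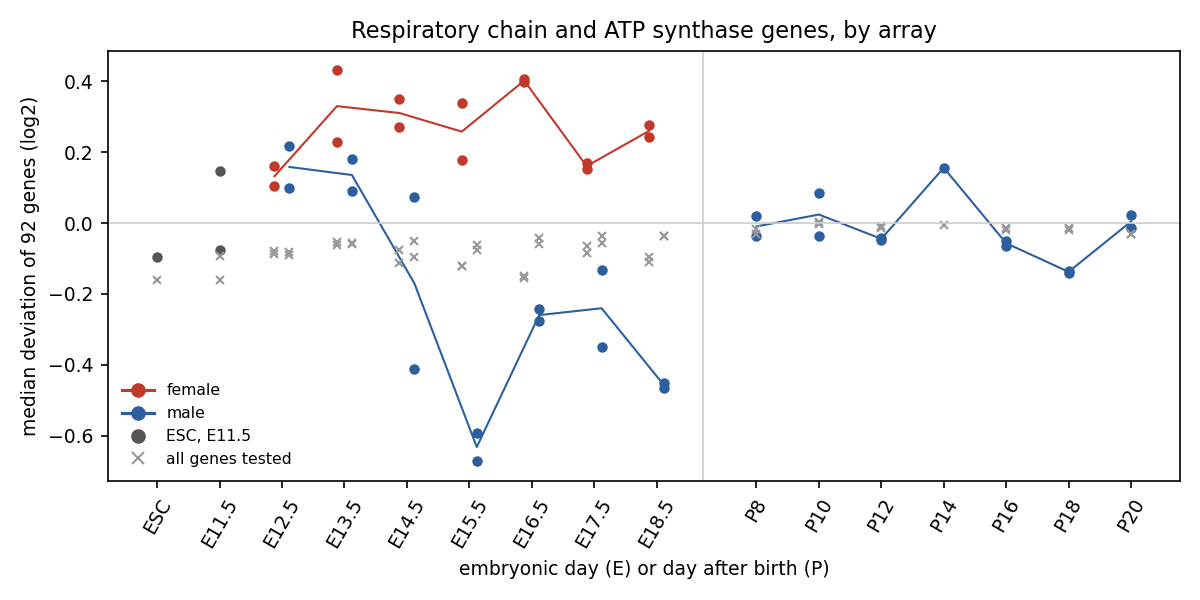
Median deviation of the 92 genes from their own mean over 44 arrays (log2, y axis) on each array, by embryonic day or day after birth (x axis); points are arrays, lines join group means, and crosses show the same median over all genes tested. Female arrays lie above 0 on every day, and the E15.5 male arrays lie at −0.67 and −0.59.

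Day by day, 39 of 92 genes were higher in females than in males at E12.5, 58 at E13.5, 62 at E14.5, 71 at E15.5, 65 at E16.5, 60 at E17.5 and 73 at E18.5. The median female minus male difference on these days was −0.06, 0.16, 0.39, 0.84, 0.68, 0.44 and 0.82 log2 units. The values by day are descriptions, with no share or median of all genes beside them. Among the 14 female and male embryonic groups, E15.5 males had the lowest level for 37 of 92 genes, where 7.22% of all genes had their lowest level in that group. E18.5 males were lowest for 14 more, where 7.39% of all genes had their lowest level. Together, male groups held the lowest level for 68 of 92 genes (73.9%), against 44.7% of all genes.

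**Figure D2:**
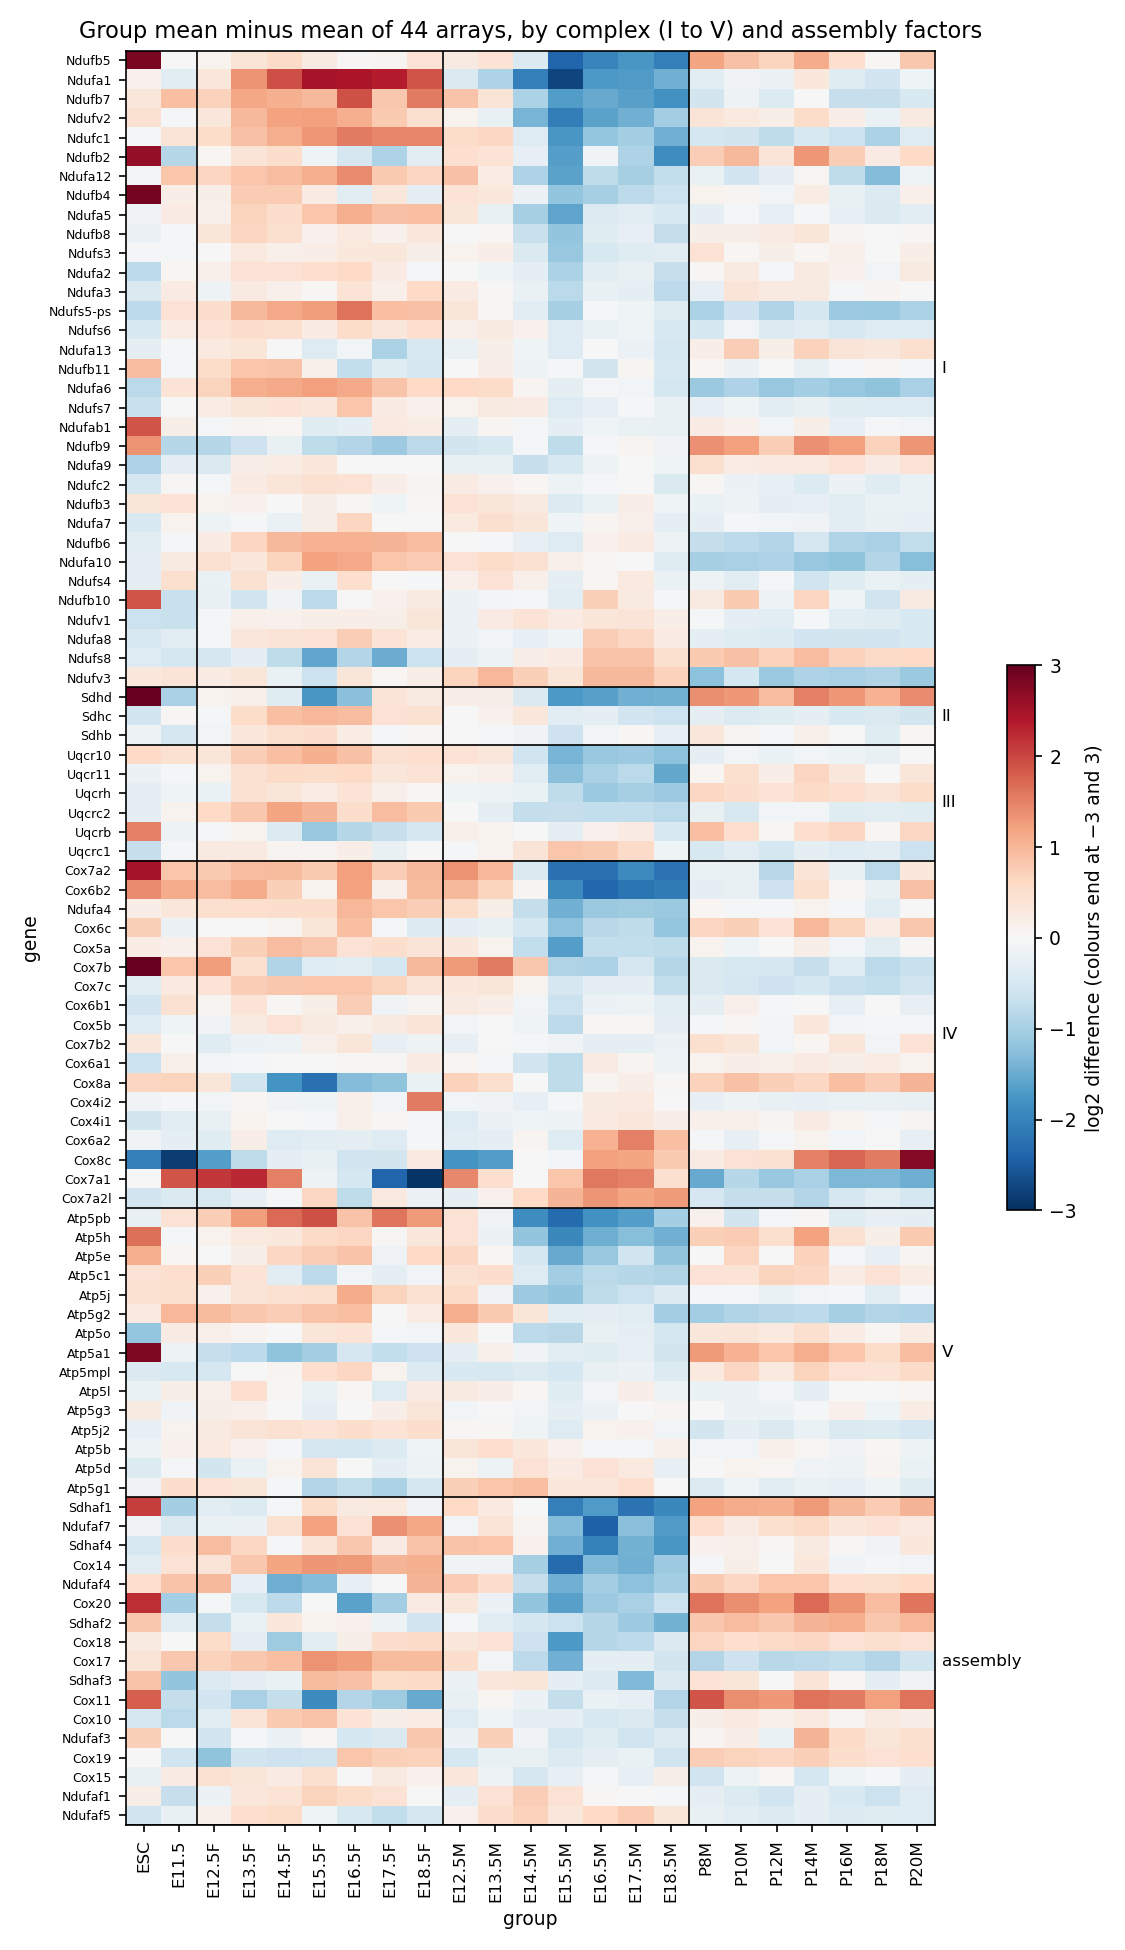
Mean level of each gene (rows, by complex, with assembly factors last) in each group (columns) minus its mean over 44 arrays, on a log2 scale whose colours end at −3 and 3. Blue cells of the E15.5 to E18.5 male columns appear in every complex, and Cox7a1, Cox7a2l, Cox8c and Ndufs8 depart from it.

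At E12.5 and E13.5 few genes differed between the sexes. A gene was called when limma's adjusted p was under 0.05 over all genes and the difference was at least 2-fold. In this window 2 of 92 genes were higher in females, where 7.06% of all genes were, and 0 were lower, where 5.67% of all genes were. Without the fold threshold, 17 were higher (18.5%) and 8 lower (8.7%), where 18.3% and 16.9% of all genes were. At an unadjusted p under 0.05, 13 were lower, where 20.6% of all genes were. The pair called was Ndufa1, an accessory subunit of complex I encoded on the X chromosome, and Cox7a1, the muscle form of a complex IV subunit. Ndufa1 had levels of 11.71, 11.90, 12.69 and 12.94 on the female arrays, against 10.97, 11.09, 10.50 and 10.59 on the male arrays. All female arrays were above all male arrays, with a log2 difference of 1.52 ± 0.15 (SE, 4 arrays against 4; adjusted p = 7.32e-09, limma). Here and below, the SE rests on the spread of the gene's replicate pairs in all groups, not in the compared groups alone. Over all genes this spread was 0.12 to 0.22 log2 units after birth and 0.26 to 0.67 in embryonic groups. Embryonic arrays may thus vary more than the SE and p-value state. Cox7a1 differed by 1.22 ± 0.19 (SE; adjusted p = 1.74e-05, limma).

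At E14.5 and E15.5, 33 genes were higher in females than in males and 3 were lower. Of all genes, 16.9% were higher and 17.9% lower. The median difference of the 92 genes was 0.69, against −0.03 for all genes. The higher genes were 14 of 33 in complex I, 0 of 3 in complex II, 3 of 6 in complex III, 6 of 18 in complex IV, 4 of 15 in complex V and 6 of 17 assembly factors. Arrays of the sexes did not overlap for 28 of the 33 (84.8%), near the 87.7% of all genes called higher. Under median scaling of the arrays in place of quantile normalization, the median of all genes was 0.15, and 31 genes were higher and 4 lower. The share of all genes called under that scaling is not given for this window.

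In complex I, Ndufa1 led with levels of 13.35, 13.45, 13.85 and 14.01 on the female arrays, against 9.91, 8.91, 8.54 and 8.90 on the male arrays. Every female array stood above its sex's E12.5 levels and every male array below them, and the log2 difference was 4.60 ± 0.15 (SE, 4 arrays against 4; adjusted p = 1.81e-18). Ndufv2, a core subunit of the module that oxidizes NADH, had 12.37, 12.49, 12.49 and 12.41 on the female arrays, against 10.18, 9.50, 9.12 and 9.15 on the male arrays. Its female arrays lay within 0.12 log2 units of each other and its male arrays were lowest at E15.5, with a difference of 2.95 ± 0.10 (SE; adjusted p = 7.11e-18). The accessory subunits Ndufb7, Ndufa12 and Ndufc1 differed by 2.34, 2.27 and 2.26, with 2 of 4 male arrays above background for Ndufb7. Ndufs8, a core subunit with iron-sulfur clusters, went the other way and was lower in females, with 10.14, 10.27, 9.34 and 9.46 on the female arrays and 11.28, 11.03, 11.16 and 11.25 on the male arrays. No female array reached a male one, and the difference was −1.38 ± 0.09 (SE; adjusted p = 1.06e-12). Ndufv1, which binds NADH and flavin, was not called, at −0.19 ± 0.09 (adjusted p = 0.0952).

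In complex V, Atp5pb, subunit b of the stalk that holds the catalytic head still, had 12.27, 12.23, 12.50 and 12.44 on the female arrays, against 8.98, 8.41, 8.12 and 8.38 on the male arrays. This gap of 3.89 ± 0.12 (SE; adjusted p = 1.16e-18) was the largest in complex V. Atp5h and Atp5j, also of that stalk, were higher by 2.01 and 1.61, and Atp5e, of the rotating central stalk, by 1.70, with 1 of 4 male arrays above background. In the catalytic head, Atp5b, the beta subunit, stood at −0.50 ± 0.07 and Atp5a1, the alpha subunit, at −0.91 ± 0.22, and neither reached 2-fold. Of the paralogous genes for the ring subunit c, Atp5g1 was lower in females (−1.06 ± 0.12, adjusted p = 1.54e-08), while Atp5g2 stood at 0.77 and Atp5g3 at 0.03 and were not called.

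**Figure D3:**
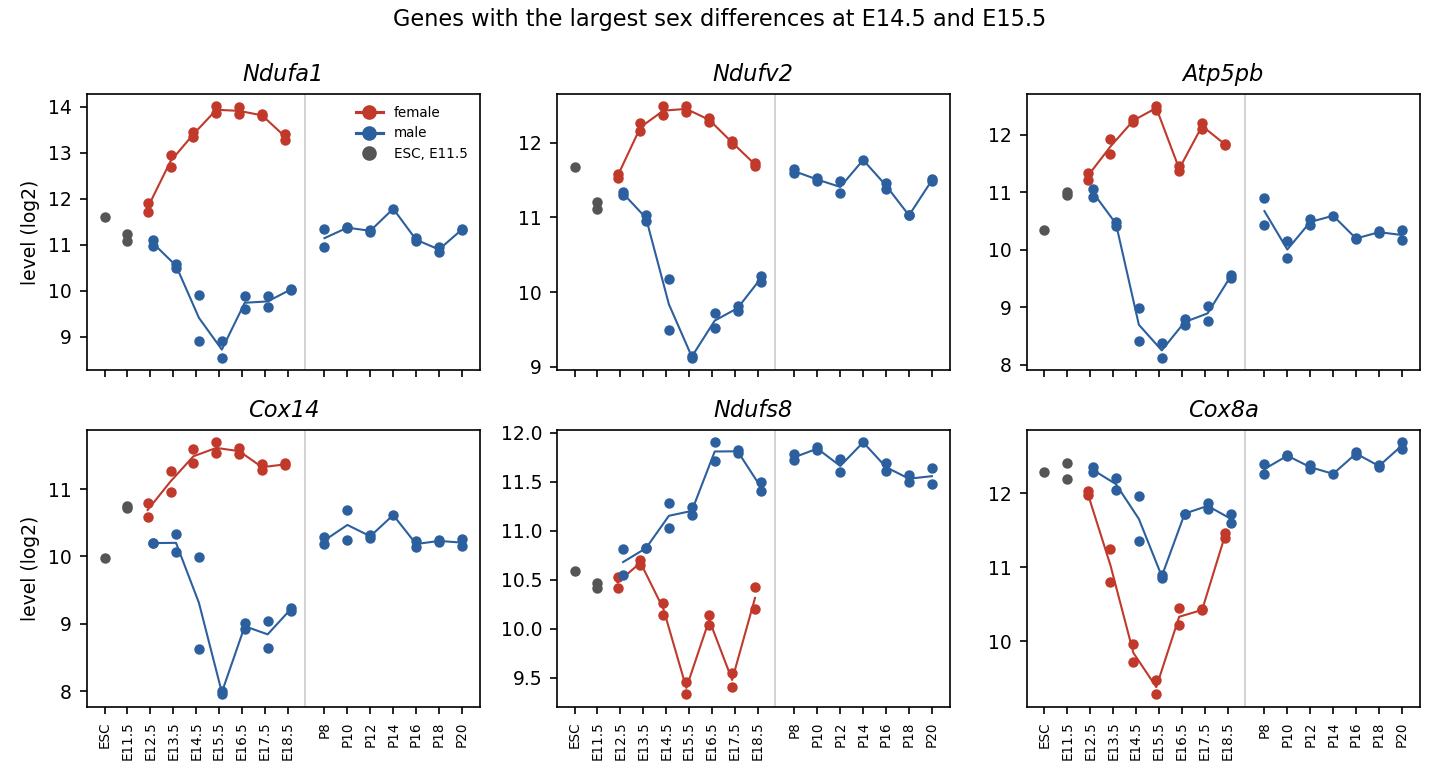
Level (log2 intensity, y axis) of 6 genes on each array by embryonic day or day after birth (x axis); points are arrays and lines join group means. Ndufa1, Ndufv2, Atp5pb and Cox14 are lowest in E15.5 males and stay high in females, while Ndufs8 and Cox8a are lower in females at E14.5 and E15.5.

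In complex III, the core protein Uqcrc2 and the small subunits Uqcr10 and Uqcr11 were higher in females by 1.80, 1.97 and 1.36. The other core protein, Uqcrc1, stood at −0.52 ± 0.09 and was not called. In complex IV, Cox5a, a subunit on the matrix side, differed by 2.06 ± 0.11 (SE; adjusted p = 1.83e-14). Ndufa4, now counted with complex IV although named for complex I, differed by 1.61, and the widely used Cox7a2 by 2.21 with 2 of 4 male arrays above background. Cox8a, the widely used form of the smallest subunit, was lower in females, with 9.72, 9.97, 9.48 and 9.29 on the female arrays against 11.96, 11.35, 10.86 and 10.90 on the male arrays. Within each sex the E15.5 arrays were lower than the E14.5 arrays, no female array reached a male one, and the difference was −1.65 ± 0.11 (SE; adjusted p = 2.69e-12). Cox4i1 stood at 0.11 and Cox6a1 at 0.68, neither called.

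Among the assembly factors, Cox14, which serves the synthesis of a mitochondrially encoded subunit of complex IV, had 11.38, 11.59, 11.53 and 11.69 on the female arrays, against 9.99, 8.63, 7.96 and 8.01 on the male arrays. The first E14.5 male array stood over 1 log2 unit above the second, and both lay below every female array. The difference was 2.90 ± 0.17 (SE; adjusted p = 1.84e-13). Cox17, the copper chaperone, Cox10, which makes a precursor of heme A, and Ndufaf7, a methyltransferase for complex I, were higher by 2.25, 1.11 and 1.44.

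**Figure D4:**
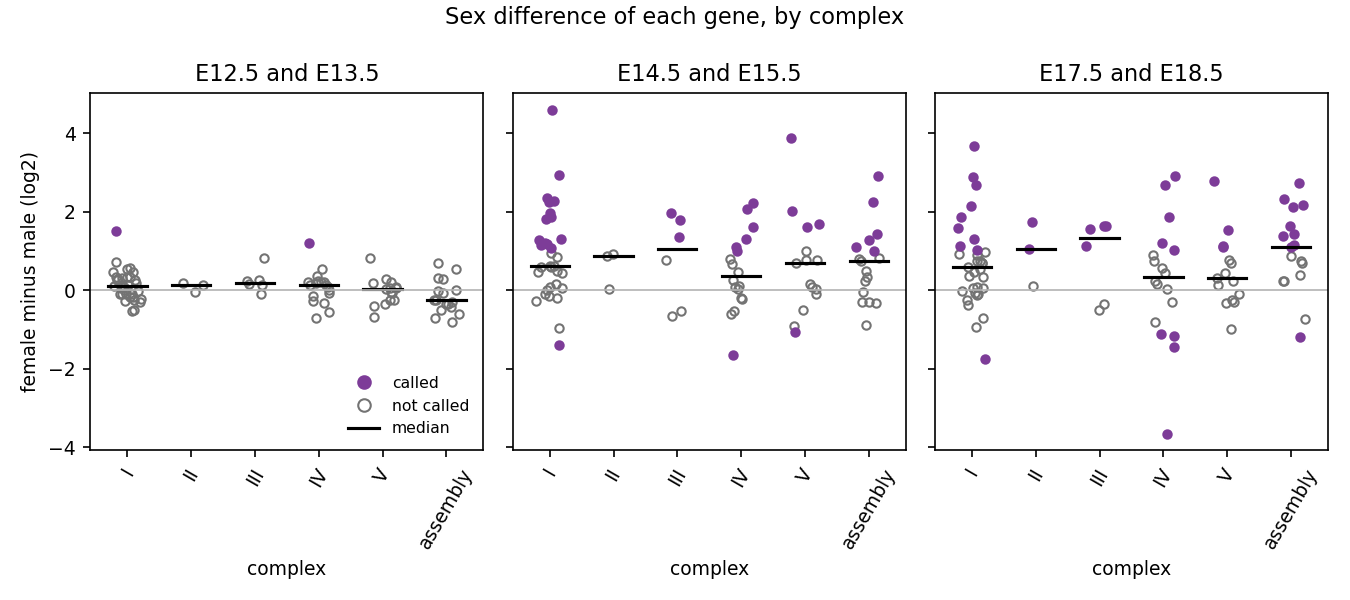
Female minus male log2 difference (y axis) of each gene, by complex (x axis), in 3 windows of embryonic days; filled points were called, open points were not, and bars are medians. Medians lie between −0.25 and 0.20 at E12.5 and E13.5 and above 0 for every complex in both later windows, with a few called genes below 0.

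At E17.5 and E18.5, again 33 genes were higher in females and 6 were lower, where 20% and 22.5% of all genes were. The median difference was 0.69, against −0.02 for all genes. These arrays are separate from those of E14.5 and E15.5, and 25 genes were higher in females in both windows, which is 75.8% of the higher genes of either. Over all genes, the higher genes shared by both windows were 60% of those of E14.5 and E15.5 and 50.7% of those of E17.5 and E18.5, and the difference between these shares was not tested. Ndufs8 was the gene lower in both, and none was higher in one window and lower in the other. Assembly factors had 9 of 17 higher and complex III 4 of 6, beside 9 of 33 in complex I, 2 of 3 in complex II, 5 of 18 in complex IV and 4 of 15 in complex V. Median scaling gave 43 higher and 2 lower, with the median of all genes at 0.29.

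Ndufa1 remained the widest, with 13.79, 13.83, 13.29 and 13.41 on the female arrays and 9.89, 9.64, 10.01 and 10.04 on the male arrays. The male arrays stood above those of E15.5 and below every female array, and the difference was 3.68 ± 0.15 (SE; adjusted p = 4.70e-17). Ndufb7 and Ndufc1 followed in complex I at 2.90 and 2.69, and Atp5pb in complex V at 2.78. In complex II, the membrane anchors Sdhd and Sdhc were higher by 1.75 and 1.06, with 2 of 4 male arrays above background for Sdhd, whereas the iron-sulfur subunit Sdhb stood at 0.11 ± 0.14 (adjusted p = 0.496). Among the factors, Ndufaf7 differed by 2.75, and Sdhaf1 and Sdhaf4, which serve the assembly of complex II, by 2.17 and 2.13. Ndufaf5, which modifies a core subunit of complex I, was lower in females by −1.18 ± 0.17 (SE; adjusted p = 7.00e-07), while its second probe, detected on 31 arrays, stood at 0.04 (adjusted p = 0.926). Markers of other cell types stood higher on the male arrays of these days. The normalized intensities of 8 Sertoli markers summed to 210 to 272 on the female arrays, with 1 detected, and 1784 to 4219 on the male arrays, with 7 detected. The 5 muscle markers summed to 160.5 to 204 in females, with 1 detected, and 810 to 1828 in males, with all 5 detected. The 4 mesenchymal markers summed to 269 to 296 in females and 962 to 1046 in males, mostly through Acta2, at 4.69 to 6.64 in females and 9.42 to 9.66 in males. Col1a1 had 4.58 to 6.30 in females and 6.12 to 6.79 in males, and Col3a1 had 4.48 to 4.85 and 4.62 to 5.04. Dcn was not higher in males, with 7.12 to 7.43 in females and 6.39 to 7.40 in males. The germ cell markers did not move together: Dppa3 had 12.22 to 13.53 in females and 7.26 to 8.31 in males, Ddx4 had 8.46 to 9.0 in females and 9.25 to 9.55 in males, and Dazl had 11.09 to 11.77 in females and 11.20 to 12.22 in males. At E14.5 and E15.5 the sums were closer: Sertoli 453 to 787 in females and 780 to 1231 in males, and muscle 126 to 321 in females and 242 to 656 in males. Of the germ cell markers on those days, Ddx4 had 8.35 to 9.59 in females and 9.35 to 10.10 in males, and Dazl had 11.77 to 12.38 in females and 10.89 to 11.86 in males. Dppa3 was lower in females, with 6.8 to 10.2 against 10.9 to 13.2 in males. Mael was detected on all male arrays and on no female array, and Tdrd1 on 1 female and 2 male arrays of each day. Erythroid markers summed to 2699 to 8209 in females and 961 to 4370 in males at E14.5 and E15.5, and to 984 to 2289 in females and 2139 to 8179 in males at E17.5 and E18.5. Their members did not move together at E14.5 and E15.5: Alas2 had 4.51 to 5.06 in females, none above background, and 5.76 to 8.33 in males. Of all probes, 33.6% to 38.9% were detected on the female arrays and 40.4% to 43.4% on the male arrays at E14.5 and E15.5. At E17.5 and E18.5 it was 35.8% to 39.1% on the female arrays and 46.1% to 49.3% on the male arrays. The part of these in the sex differences was not tested.

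The courses within each sex show where the gap opened. In females, 4 genes rose between E12.5 to E13.5 and E17.5 to E18.5 and 4 fell, where 10.1% and 11.6% of all genes did, and the median change was 0.04. In males, 3 rose and 25 fell, where 20.3% and 16.4% of all genes did, with a median of −0.50. By class, 6 of 17 assembly factors, 7 of 33 genes of complex I, 1 of 3 of complex II, 2 of 6 of complex III, 4 of 18 of complex IV and 5 of 15 of complex V fell in males. The female course minus the male course, a test of the difference itself, was positive for 28 genes and negative for 5, where 20.2% and 22.9% of all genes were called, with a median of 0.50. Called in either direction were 35.9% of the 92 genes and 43.1% of all genes. Without background correction, 17 were positive and 3 negative, and in the male course 2 rose and 14 fell. In the female course 2 rose and 3 fell without it. Shares of all genes without the correction are not given, so these counts are not set against all genes. This comparison and those of the later windows share arrays, so they are not independent of each other. Under median scaling 1 rose and 50 fell in males, with the median of all genes at −0.19.

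In the male course the widely used Cox7a2 fell most, by 3.24 ± 0.25 log2 units (SE; adjusted p = 1.67e-11), with 2 of 4 late arrays above background. Sdhaf1, which inserts iron-sulfur clusters into Sdhb, fell by 2.52 and Sdhaf4 by 2.42. Sdhaf4 had 8.47, 8.33, 8.24 and 7.93 on the E17.5 and E18.5 male arrays, against 10.63, 10.70, 10.68 and 10.64 on the E12.5 and E13.5 male arrays. The late arrays lay far below the tight early ones (adjusted p = 5.76e-14). In females Sdhaf4 was not called, at −0.23 ± 0.14, with 10.05, 10.07, 10.66 and 10.69 on the late arrays and 10.73, 10.78, 10.35 and 10.52 on the early arrays. The genes that rose in females were Cox19 (1.60 ± 0.16), Ndufaf7 (1.45 ± 0.19), Ndufa1 (1.27 ± 0.15) and Cox8c (1.08 ± 0.32), the last with overlapping arrays. Cox7a1, Atp5g1, Ndufb11 and Ndufa13 fell in females, Atp5g1 by 1.12 ± 0.12. Ndufb11 gets no size, since 0 of 4 late arrays were above background.

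The paralogous subunits of complex IV took different courses. Cox7a1, the muscle form, fell in females: its levels were 5.96, 6.39, 5.33 and 5.90 on the E17.5 and E18.5 female arrays, against 10.75, 10.59, 10.86 and 10.80 on the E12.5 and E13.5 female arrays. Late arrays lay over 4 log2 units below early ones, with 3 of 4 above background, and the change was −4.86 ± 0.19 (SE; adjusted p = 1.37e-16). Male levels were 10.30, 9.83, 8.98 and 9.12 on the late arrays and 9.94, 10.08, 9.23 and 8.88 on the early arrays, which overlap. Cox7a1 was lower in females at E17.5 and E18.5, by −3.66 ± 0.19 (SE; adjusted p = 1.06e-14), after being higher in females at E12.5 and E13.5. Cox7a2 had 7.44, 8.01, 7.91 and 8.03 on the E17.5 and E18.5 female arrays, against 4.96, 5.22, 4.46 and 5.10 on the male arrays. Every female array lay over 2 log2 units above every male array, a difference of 2.92 ± 0.25 (SE; adjusted p = 8.20e-11). Cox7a2l, which joins complexes III and IV, was lower in females, at 11.18, 11.31, 10.81 and 10.78 on the female arrays and 12.15, 12.13, 12.14 and 12.31 on the male arrays. Its male level rose by 1.32 ± 0.11 over the course, and the difference between the sexes was −1.17 ± 0.11 (SE; adjusted p = 6.81e-10).

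**Figure D5:**
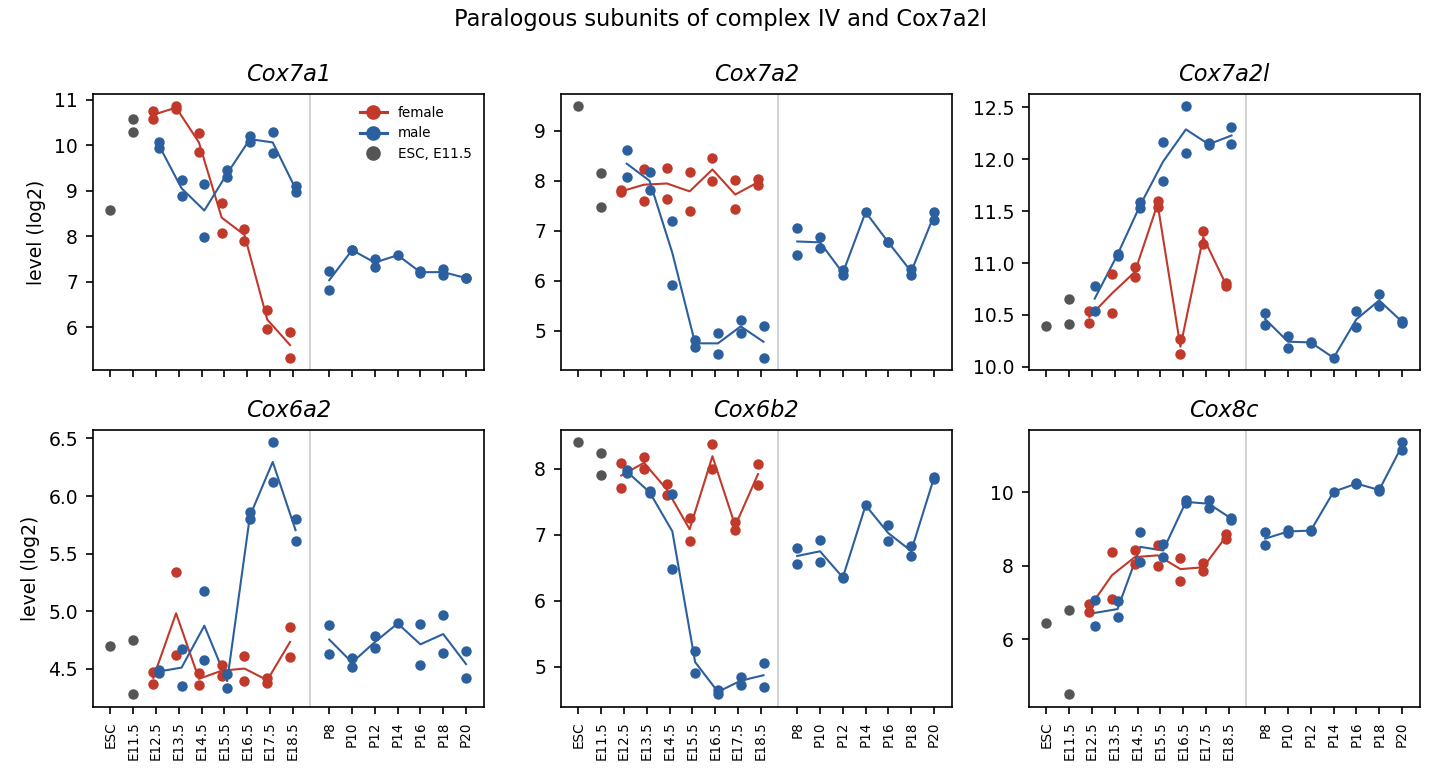
Level (log2 intensity, y axis) of paralogous complex IV subunits and of Cox7a2l on each array by embryonic day or day after birth (x axis); points are arrays and lines join group means. Cox7a1 falls in females, Cox7a2 and Cox6b2 fall in males, Cox6a2 is above background on the 6 male arrays of E16.5 to E18.5, and Cox8c is highest at P20.

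The testis form Cox6b2 was not higher in fetal males. It had 7.19, 7.08, 8.08 and 7.76 on the E17.5 and E18.5 female arrays, against 4.85, 4.73, 4.70 and 5.05 on the male arrays, of which 1 was above background. Every female array lay over 2 log2 units above every male array, with a difference of 2.70 ± 0.17 (SE; adjusted p = 3.90e-13), and the male fall over the course was −2.97 ± 0.17. A dimmer second probe of Cox6b2, detected on 6 arrays, gave a sex difference of 0.24 (adjusted p = 0.51). The testis form Cox8c rose in males by 2.72 ± 0.32 (SE; adjusted p = 4.23e-08) and was lower in females at E17.5 and E18.5 by −1.11 ± 0.32 (SE; adjusted p = 0.00335), at 8.06, 7.85, 8.86 and 8.73 in females and 9.80, 9.58, 9.26 and 9.31 in males. The third testis form, Cox7b2, was detected on 3 arrays in all, and its differences between groups were not called. The muscle form Cox6a2 was detected on the 6 male arrays from E16.5 to E18.5 and on no other array. It passed the detection filter through these male arrays alone, so its differences are descriptions with no test, although it is among the counts above. At E17.5 and E18.5 it was at least 1.15-fold lower in females, with measured levels of 4.38, 4.43, 4.60 and 4.87 in females and 6.47, 6.12, 5.61 and 5.80 in males. The fold is a bound because no female array was above background. The muscle marker Tnnc2, a troponin of fast muscle, had 4.58, 4.47, 5.02 and 4.59 on the female arrays of these days, none above background, and 10.11, 9.39, 8.05 and 8.17 on the male arrays, and its part in the level of Cox6a2 was not tested. The hypoxia and lung form Cox4i2 was detected on the E18.5 female arrays alone, at 5.98 and 6.22.

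After birth many of these genes were higher again in males. At P8 and P10, 29 genes were higher than at E17.5 and E18.5 and 4 were lower, where 18.4% and 18.6% of all genes were, with a median of 0.48 against 0.02 for all genes. Assembly factors had 11 of 17 higher, complex I 6 of 33, complex II 1 of 3, complex III 2 of 6, complex IV 4 of 18 and complex V 5 of 15. The E17.5 and E18.5 male arrays also serve the comparisons above. Sdhaf1 led, with 8.23, 8.14, 8.04 and 8.13 on the P8 and P10 arrays, against 4.53, 4.98, 5.01 and 5.07 on the fetal arrays, 3 of them above background. The juvenile arrays were tightly grouped and far above, by 3.24 ± 0.34 (SE; adjusted p = 8.06e-09). Ndufb5, Sdhd and Cox20 were higher by 2.92, 2.77 and 2.31, with 2 of 4 fetal arrays above background for Sdhd and 3 of 4 for Cox20, and Uqcrh, the hinge protein of complex III, by 1.63 ± 0.10 (SE; adjusted p = 7.78e-13). Cox7a1 was lower by −2.19 ± 0.19, Cox7a2l by −1.84 ± 0.11 and Ndufv3, an accessory subunit of complex I, by −1.71 ± 0.13. The other probes of Ndufv3 stood at −1.44 and, detected on 8 arrays, 0.14. Cox6a2 was at least 1.68-fold lower after birth, detected on 0 of 4 juvenile arrays, again a description.

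Juvenile arrays were brighter than late fetal ones, with upper quartiles of 454.7 to 581.1 against 115.6 to 125.2. The 29 higher genes were dim, with a median level of 8.76, against 11.24 for the genes not called, and 17 of the 29 were detected on all arrays. Among 14 genes with several kept probes, the probes gave the same sign for 9 in this comparison and differed by over 1 log2 unit for 6, while in the sex comparison at E17.5 and E18.5 they gave the same sign for 12 and differed that much for 3. Muscle markers summed to 130 to 156 on the juvenile arrays and 810 to 1828 on the fetal ones, Sertoli markers to 1850 to 9161 on the juvenile arrays and 1784 to 4219 on the fetal ones. The part of brightness and of these markers in the juvenile difference was not tested. Without background correction 16 genes were higher and 3 lower. Under cyclic loess 23 genes were higher and 3 lower, with the median of all genes at −0.16, and under median scaling 48 were higher and 5 lower. No shares of all genes stand beside the counts without background correction and under median scaling.

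During the first wave of sperm formation nearly no gene was called. Between P8 to P10 and P18 to P20, 1 gene rose and 0 fell, where 1.23% and 0.338% of all genes did, and the median change was −0.12. At an unadjusted p under 0.05, 7 fell, where 5.82% of all genes did. The gene was Cox8c, with 10.04, 10.09, 11.16 and 11.37 on the P18 and P20 arrays, against 8.55, 8.92, 8.88 and 8.98 on the P8 and P10 arrays. It rose by 1.83 ± 0.32 log2 units (SE; adjusted p = 0.000491), with P20 above P18. The 5 kept spermatocyte markers summed to 5362 to 12020 at P18 and P20, against 1599 to 1801 at P8 and P10, and their part in the rise of Cox8c was not tested. Cox6b2 stood at 0.59 ± 0.17 and was not called.

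Against ESC, embryonic PGC had 4 genes higher and 19 lower, where 17.2% and 16.5% of all genes were, with a median of 0.10. The median was −0.04 under cyclic loess and −0.61 under median scaling, so its sign depends on the scaling. ESC is 1 array, and its own spread is assumed to be that of the other groups. Sdhd was 3.86 ± 0.43 log2 units lower in PGC (SE, 30 arrays against 1; adjusted p = 3.73e-08), ranging between 4.41 and 7.12 in PGC, with 19 of 30 arrays above background, against 9.66 in ESC. Cox7b, Atp5a1 and Ndufb5 were lower by −3.39, −3.29 and −3.23, with Cox7b above background on 14 of 30 PGC arrays and Ndufb5 on 26. Ndufa6, an accessory subunit of complex I, was higher by 1.31 ± 0.17 (adjusted p = 4.76e-07), and all PGC arrays exceeded its ESC level of 11.10. Under median scaling it stood at 0.56 and was not called. The 19 lower genes had a median level of 7.0 and 6 of them were detected on all arrays, while the ESC array was brighter than every PGC array. Among 14 genes with several kept probes, 8 gave one sign over all probes, and those of Ndufa5 differed by 3.53 log2 units. The part of brightness in these differences was not tested.

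Genes around the respiratory chain were counted from lists written by hand. The tricarboxylic acid cycle and pyruvate dehydrogenase, which supply its electrons, had 14 of 16 genes kept. At E14.5 and E15.5, 7 of the 14 were higher in females and 3 lower, where 16.9% and 17.9% of all genes were. At E17.5 and E18.5, 6 were higher and 2 lower, where 20% and 22.5% of all genes were. Idh3a, a subunit of the NAD-dependent isocitrate dehydrogenase, differed by 3.92 ± 0.16 and Suclg2, a subunit of succinyl-CoA ligase, by 3.85 ± 0.14 at E17.5 and E18.5 (SE; adjusted p = 5.46e-17 for Idh3a and 1.88e-17 for Suclg2). Of the 4 male arrays, 2 were above background for each. Mdh2, the mitochondrial malate dehydrogenase, was lower in females in both windows, by −2.26 and −1.21. Of the regulators, 9 of 12 were kept, and in each of these windows, with the same shares of all genes beside them, 4 of the 9 were higher in females and 1, Ppargc1b, was lower. Ppargc1b was at least 1.06-fold lower at E14.5 and E15.5 and at least 1.11-fold lower at E17.5 and E18.5, with no female array above background. Apart from ESC, it was detected on the male arrays of E14.5 to E18.5 alone and passed the detection filter through them. Its differences are therefore descriptions with no test, although it is among the counts here. At E17.5 and E18.5 the 4 were Gabpb1, a partner of GABPA (1.93 ± 0.17), Tfam, which packs and transcribes mitochondrial DNA (1.13 ± 0.15), Nrf1 (1.03 ± 0.15) and Tfb2m (1.01 ± 0.20). Tfam, Gabpb1, Gabpa and Tfb2m were also higher at P8 and P10 than in late fetal males, by 1.65, 1.69, 2.04 and 1.51. Of 12 partners, 8 were kept, of which 2 were higher in females and 2 lower in each window, with median differences of −0.35 and −0.53. Cyc1, the cytochrome subunit of complex III, was higher in females in both windows by 1.07 and 1.33, Etfa by 1.78 and 1.96, and Etfb, which pairs with Etfa, was lower by −1.02 and −2.39. Also lower in females were Slc25a5, a carrier of ADP and ATP, at E14.5 and E15.5 (−1.42 ± 0.13, arrays overlapping) and Atpif1, the inhibitor of ATP synthase, at E17.5 and E18.5 (−1.10 ± 0.11). Cycs was not called in any of these windows. Cyct and Slc25a31, the testis forms of cytochrome c and of the ATP carrier, were not detected on enough arrays.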

How the data were processed

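The samples were sorted PGC, postnatal cells labelled as male PGC and an ESC line, measured on MouseRef-8 v2 beadchips with amplified RNA. The authors' deposited intensity values are mean bead brightness per probe and array from BeadStudio 3.2, per the submitters' processing notes, with no scaling between arrays found in the file. The deposited detection p-value of each probe is given beside them by the authors. The authors' deposited log2 values come from RMA and lumi, per the submitters' processing notes; their column median is 3.20, their ranks match the intensities (lowest rank correlation 1), and they served as an alternative.

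The background was estimated through the detection p-values and removed, an offset of 16 added and the arrays quantile-normalized (neqc, limma 3.58.1, R 4.3.3). Of 25697 probes, 16086 were detected on 2 or more arrays at p under 0.01. Probe symbols came from the platform annotation, which gave 23978 probes 1 symbol and 1719 none. A model of 23 group means was fitted to 44 arrays (21 residual and 3.63 prior degrees of freedom), and the lone ESC and P14 arrays were assumed to vary like the others. Contrasts were tested two-sided with limma's moderated statistic and adjusted by Benjamini-Hochberg over 10935 genes. Calls required an adjusted p below 0.05 together with a 2-fold difference. A group with no array above background gave only a bound, against the lowest detected signal of each array or the probe's own where higher. Tests were checked on simulated data. The precision is limited by the number of arrays.

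The genes, the other lists and the comparisons were chosen with earlier results of these data known. Named genes were the 4 with the largest rise and the 4 with the largest fall among called genes whose arrays did not overlap, with the isoforms and catalytic subunits whatever their values. For the difference of courses overlap is not defined, and they were taken among all called genes. Further examples from each complex were chosen after their values were seen. Alternatives were the background correction and its offset, the normalization, the authors' values, the detection filter, the fold threshold, the mean over probes, weights for arrays, a block for the replicate number, a fit of only the arrays compared and each array left out. A fit without the E11.5 and E16.5 female arrays was chosen after seeing the data.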

Additional observations from a re-analysis of the deposited data

Results flagged for a closer look

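The course over fetal days differed between the sexes for 33 of the 92 genes, by limma's test of the difference itself (late minus early in females, minus the same in males, 8 arrays against 8). This is 35.9% of the genes, where 43.1% of all genes were called, so the count does not set them apart. On the log2 scale, Cox7a2 differed by 3.23 (adjusted p = 1.41e-08), Ndufaf7 by 3.09 (adjusted p = 2.73e-10), Sdhaf1 by 2.99 (adjusted p = 9.11e-06) and Ndufb7 by 2.59 (adjusted p = 2.14e-06). In the other direction, Cox7a1 differed by −4.88 (adjusted p = 1.34e-13), Cox8c by −1.64 (adjusted p = 0.00287) and Ndufs8 by −1.56 (adjusted p = 1.28e-10). Cox6a2, also called in this direction, is left out here because it passed the detection filter through male arrays alone.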

How the results depend on the processing

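Without the fold threshold the calls were 53 against ESC, 60 for the difference of courses, 25, 67 and 68 for the sexes at E12.5 to E13.5, E14.5 to E15.5 and E17.5 to E18.5, 68 for juvenile against late fetal males, 30 for the female course and 66 for the male course. Split into higher and lower, these were 27 and 26 against ESC and 48 and 12 for the difference of courses. For the sexes in order of days they were 17 and 8, 56 and 11, and 54 and 14. Juvenile males had 50 and 18, the female course 15 and 15, and the male course 9 and 57. The shares of all genes called higher and lower by this rule were 26.3% and 22.5% against ESC and 28.4% and 30.8% for the difference of courses. For the sexes in order of days they were 18.3% and 16.9%, 29.2% and 31%, and 33% and 35.6%. They were 33.7% and 32.1% for juvenile males, 23.7% and 23% for the female course and 33% and 30.9% for the male course. Without background correction the calls among the 92 genes were 20 for the difference of courses, 19 for juvenile males, 5 for the female and 16 for the male course. These have no shares of all genes beside them. Median scaling gave 53 for juvenile males and 51 for the male course. Leaving out each array in turn gave 23 to 24 calls against ESC, 32 to 35 for the difference of courses, 2 to 3, 33 to 38 and 37 to 44 for the sexes in order of days, 32 to 34 for juvenile males, 7 to 9 for the female course, 28 to 30 for the male course and 1 for the first wave. Over all genes, median scaling turned the split of higher and lower calls to 2189 and 1280 for the sexes at E17.5 to E18.5, 2333 and 1389 for the difference of courses and 1201 and 2034 for the male course. Cyclic loess gave 1143 and 2141 for juvenile males, 1286 and 1944 for the sexes at E17.5 to E18.5, 1253 and 2071 for the difference of courses and 1805 and 919 for the male course. Against ESC, median scaling gave 3640 and 2339. Of 583 recomputed values of named genes, 552 kept direction and side of the threshold, 31 kept direction and lost the threshold, and 0 reversed. These genes were picked among called genes for large differences in the same arrays. That choice favoured keeping direction and call, so this count cannot show how stable the whole set is. Of 99 recomputed medians of the set, 78 were counted as the same and 21 as moved. The spread of the median between replicates was 0.10. The causes of the lost thresholds and moved medians were not tested. By replicate number, deviations correlated between −0.12 and 0.33 over 210 pairs of groups, with a median of 0.01 and 21 pairs over 0.1. Whether replicate numbers stand for a shared batch in some groups was not tested. With the replicate block the sexes still had 36 calls at E14.5 to E15.5 and 39 at E17.5 to E18.5, the same counts as without it. Dim probes and their number of arrays limit what the lower levels can show.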

Other observations

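Postnatal days outside the comparisons stood close to the others: the median deviation of the 92 genes was −0.04 at P12, 0.16 on the single P14 array and −0.06 at P16. The E11.5 arrays had a median of 0.03 and the E16.5 female arrays of 0.40, both from pairs with a wide spread between replicates. Of the set, 3 genes lie on the X chromosome by RefSeq: Ndufa1, Ndufb11 and Cox7b. Ndufb11 was detected on 10 arrays and Cox7b on 17, whereas Ndufa1 was detected on all.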
